A study of Bos taurus with 9 samples.

Results

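In the liver of heat-stressed cows, 7 bovine genes picked for reduced read counts were examined: *PDYN*, *NUP62*, *ATF5*, *NT5C*, *TEX12*, *SEC14L3* and *KCNIP4*. These 7 genes, of 28786 listed by symbol, were chosen by their measured counts in the heat stress (HS) group, as low beside those of the other groups. This did not hold against each group for every gene, as given below. Therefore, every difference between the HS group and another group is given below as a description. Calls of these genes in the contrasts with HS cows are counted once, beside the share of all genes called, and nothing is read from them. The cows were lactating Holsteins in 3 groups of 3, and each cow gave 1 liver biopsy and 1 poly(A) RNA-seq library. TN cows were held at thermoneutrality, and no matching of their feed to another group is described. HS cows were held in a hot climate with warmer days than nights. Pair-fed (PF) cows were held at thermoneutrality with their feed matched to the reduced intake of the HS cows, so that the PF group carries the low intake without the heat. The cows were a random pick from a larger experiment, and a bulk biopsy cannot tell fewer cells of a type from less RNA per cell.

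The 7 genes do not form a pathway. *PDYN* encodes prodynorphin, the precursor of the dynorphin opioid peptides, and is best known from the brain. *NUP62* encodes a nucleoporin of the central channel of the nuclear pore, through which proteins and RNA move in and out of the nucleus. *ATF5* encodes a basic leucine zipper transcription factor that is abundant in liver and takes part in stress responses, including that to unfolded proteins in mitochondria. *NT5C* encodes a cytosolic nucleotidase that removes the phosphate from deoxyribonucleotides. *TEX12* encodes a component of the synaptonemal complex, which joins paired chromosomes in meiosis. *SEC14L3* encodes a SEC14-like lipid-binding protein, and *KCNIP4* encodes a calcium-binding subunit of voltage-gated potassium channels.

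The libraries held 16874444 to 22557047 counts on genes. Expression is given as CPM, that is counts scaled to library size, after TMM normalization, with the mean ± SD of n = 3 cows, and a count of 0 allows up to 3 counts, or 0.111 to 0.202 CPM. Such a limit covers counting error only. All 10 hepatocyte markers were found, with a summed level of 63399 to 137514 CPM in 8 cows and 19230 CPM in TN replicate 1, which stood apart. Where leaving it out moved a fold change printed below by more than 1.5 times, the value without it is given as well. The 13 mitochondrial protein-coding genes took 13.6% to 22.2% of the counts in TN, 6.90% to 7.79% in PF and 3.84% to 5.68% in HS cows. Leaving these genes out of the library sizes moved the log2 fold changes of *NUP62* from -2.15 to -2.14 (HS vs. TN) and from -1.38 to -1.39 (PF vs. TN).

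The rule that chose the genes was then read cow by cow. Every HS cow lay below every TN and PF cow for *PDYN*, *ATF5* and *SEC14L3*, that is for 3 of the 7 genes, and the same held for 1.49% of the 15073 genes with enough counts in the 9 libraries. The other 4 genes overlapped with at least 1 cow outside the HS group. For *NUP62*, *NT5C* and *TEX12* the HS cows were below each TN cow but not below each PF cow, and for *KCNIP4* they were not below each TN cow either. Of the genes that overlapped, *NUP62* and *NT5C* had each PF cow below each TN cow, whereas for *TEX12* only 1 PF cow lay below all TN cows. All 7 passed the filter on low counts, although *PDYN* and *KCNIP4* passed through their TN and PF counts alone.

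**Figure D1:**
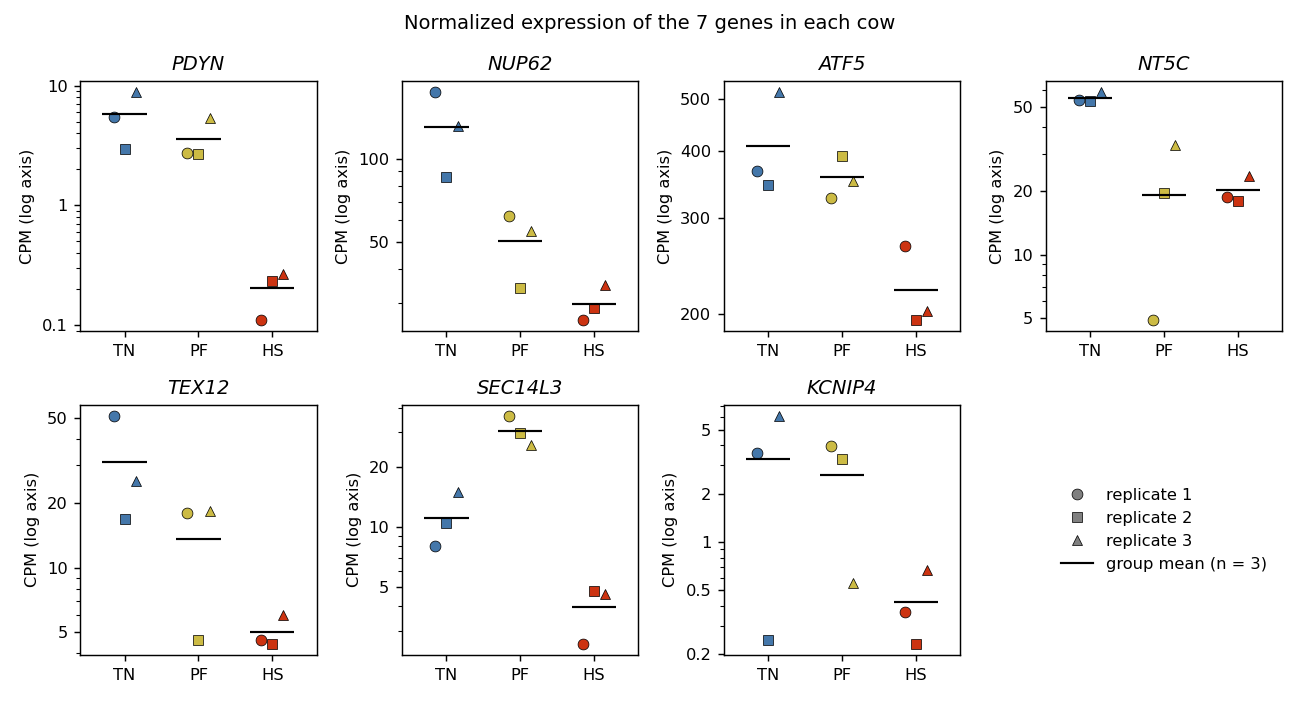
Normalized expression (CPM, log axis) of the 7 genes in TN, PF and HS cows, 1 point per cow with the replicate shown by its shape, and a black line at the group mean (n = 3). The HS cows lie below all other cows for *PDYN*, *ATF5* and *SEC14L3*, the PF cows lie highest for *SEC14L3*, and 1 PF cow is lowest of all for *NT5C* at 4.91 CPM.

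*PDYN* showed the widest gap. In TN replicates 1 to 3 it had 124, 48 and 148 counts, or 5.54, 2.96 and 8.82 CPM. PF replicates 1 to 3 had 46, 48 and 105 counts, or 2.72, 2.68 and 5.35 CPM. HS replicates 1 to 3 had only 3, 4 and 4 counts, or 0.111, 0.234 and 0.269 CPM. So the HS counts were close to the detection floor, whereas the TN and PF cows overlapped with each other. The group means were 5.77 ± 2.94 CPM in TN, 3.58 ± 1.53 CPM in PF and 0.204 ± 0.0831 CPM in HS cows. Pooled over cows, the TN group exceeded the HS group 31.1-fold, with a 95% counting interval (exact binomial) of 17.1 to 62.8, and the PF group exceeded it 19.6-fold, with an interval of 10.7 to 39.97. These intervals treat the pooled reads as independent and cover counting error only, not the spread between cows, which came to a coefficient of variation of 50.8% in the TN group. The log2 fold change of HS against TN was -4.86 (SE 0.62), the third lowest among 14582 genes, and that of HS against PF was -4.15 (SE 0.65).

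*SEC14L3* was low in HS cows and high in PF cows. TN replicates 1 to 3 had 8.04, 10.5 and 15.0 CPM, PF replicates 1 to 3 had 36.3, 29.7 and 25.9 CPM, and HS replicates 1 to 3 had 2.58, 4.73 and 4.57 CPM. The 3 groups did not overlap at all, and their order was PF over TN over HS. The means were 11.2 ± 3.51, 30.6 ± 5.23 and 3.96 ± 1.198 CPM in TN, PF and HS cows. The HS group was 7.73-fold below the PF group but 2.82-fold below the TN group, and the log2 fold changes were -2.97 (SE 0.30) and -1.51 (SE 0.35).

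*ATF5*, by contrast, had the smallest fold change against the TN group and by far the most counts of the 7 genes. Its levels were 367, 347 and 513 CPM in TN replicates 1 to 3. PF replicates 1 to 3 had 328, 391 and 353 CPM, within or just below the range of the TN cows. HS replicates 1 to 3 had 267, 195 and 203 CPM, below each of the other 6 cows. The means were 409 ± 91.0 CPM in TN, 357 ± 32.0 CPM in PF and 221 ± 39.5 CPM in HS cows, with log2 fold changes of -0.90 (SE 0.31) for HS against TN and -0.69 (SE 0.26) for HS against PF.

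*NUP62* was low under both treatments. TN replicates 1 to 3 had 173.9, 86.1 and 131 CPM, PF replicates 1 to 3 had 62.2, 34.0 and 55.0 CPM, and HS replicates 1 to 3 had 26.1, 28.7 and 34.9 CPM. Each PF cow was below each TN cow, and PF replicate 2 lay inside the range of the HS cows. The means were 130.5 ± 43.9, 50.4 ± 14.7 and 29.9 ± 4.51 CPM in TN, PF and HS cows. The log2 fold change of HS was -2.15 (SE 0.31) against TN and -0.76 (SE 0.26) against PF cows. Without TN replicate 1, the highest cow, the former was -1.86 (SE 0.25).

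*NT5C* had the tightest TN group of the 7 genes and no gap between HS and PF cows. TN replicates 1 to 3 had 53.9, 53.3 and 58.6 CPM, with a coefficient of variation of 5.27%. HS replicates 1 to 3 had 18.7, 18.0 and 23.7 CPM. PF replicates 1 to 3 had 4.91, 19.6 and 33.1 CPM, so that the PF cows ran from below to above all HS cows while staying under all TN cows. The means were 55.2 ± 2.91, 19.2 ± 14.1 and 20.1 ± 3.09 CPM in TN, PF and HS cows. The log2 fold change was -1.47 (SE 0.21) for HS against TN but 0.06 (SE 0.49) for HS against PF, with the PF mean slightly below the HS mean. The second value turned to -0.39 without PF replicate 1, which had 83 counts. Low HS counts therefore describe *NT5C* only in relation to the TN group.

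*TEX12* varied most within the TN group after *KCNIP4*. TN replicates 1 to 3 had 50.9, 16.9 and 25.4 CPM, PF replicates 1 to 3 had 17.9, 4.64 and 18.4 CPM, and HS replicates 1 to 3 had 4.61, 4.44 and 6.05 CPM. All HS cows were below all TN cows, but PF replicate 2 had a level within the HS range while the other PF cows reached that of the lowest TN cow. The means were 31.0 ± 17.7, 13.6 ± 7.81 and 5.03 ± 0.886 CPM. The log2 fold change of HS was -2.66 (SE 0.41) against TN and -1.45 (SE 0.45) against PF cows, and without TN replicate 1 the former was -2.07 (SE 0.28).

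*KCNIP4* did not separate the groups. It had 80, 4 and 102 counts in TN replicates 1 to 3, 67, 59 and 11 counts in PF replicates 1 to 3, and 10, 4 and 10 counts in HS replicates 1 to 3. The HS cows were uniformly low, but TN replicate 2 and PF replicate 3 were as low as they were. The means were 3.30 ± 2.93 CPM (TN), 2.61 ± 1.80 CPM (PF) and 0.425 ± 0.225 CPM (HS), and the 9 cows spanned a 26.0-fold range. The log2 fold changes of HS, -2.98 (SE 0.97) against TN and -2.62 (SE 0.80) against PF, had the largest standard errors of the 7 genes. Without TN replicate 2 the first was -3.52, and without TN replicate 3 it was -2.22.

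**Figure D2:**
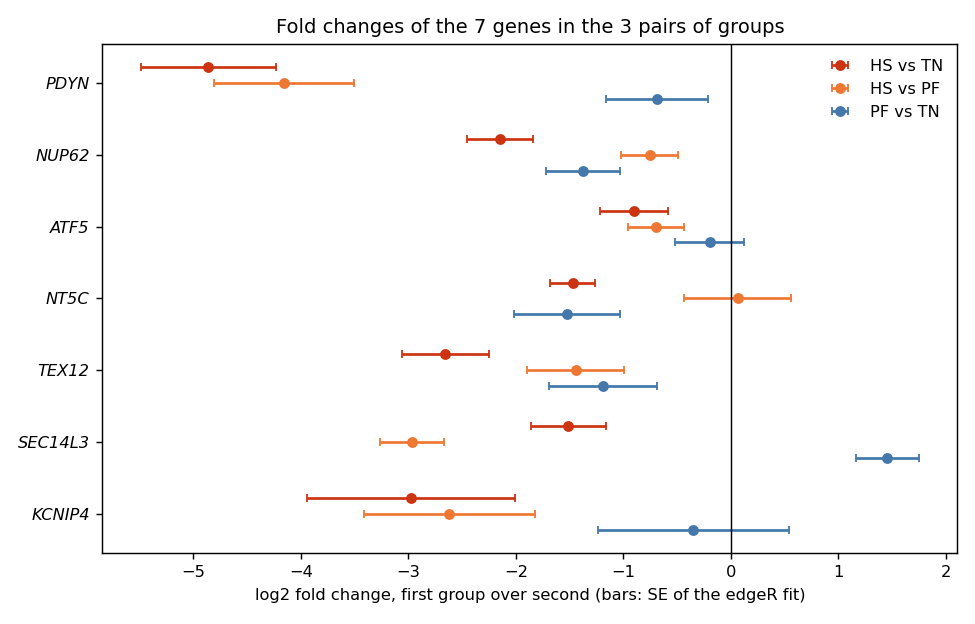
Log2 fold changes of the 7 genes for HS vs. TN, HS vs. PF and PF vs. TN, as fitted with edgeR on 3 cows per group; bars are ± 1 SE. The PF vs. TN value is above 0 for *SEC14L3* (1.46) and furthest below 0 for *NT5C* (-1.52) and *NUP62* (-1.38).

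A gene was called at a fold change above 1.5 with an FDR below 0.1. By these criteria edgeR called 4 of the 7 genes lower in HS than in TN cows (*PDYN*, *NUP62*, *NT5C* and *TEX12*), and 0.0549% of the 14582 genes tested were called in that direction. DESeq2, the tool of the study, called all 7, and 0.889% of genes in that direction. Between the HS and PF groups edgeR called *SEC14L3*, while 0.0207% of genes were called lower in HS cows. DESeq2 called *SEC14L3* and *PDYN* and 0.31% of all genes. Since these contrasts chose the genes, and *PDYN* passed the filter through its TN and PF counts, the counts support nothing about the genes. The 4 edgeR calls against the TN group were all lost when any one of the HS cows, TN replicate 1 or TN replicate 3 was left out, and all 4 were kept without TN replicate 2.

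Whether the genes also fall under pair-feeding was asked with the PF and TN cows. The HS cows take no part in this comparison, but the TN and PF levels had been set against the HS levels when the genes were chosen, so it is not fully independent of that choice. By edgeR 0 of the 7 genes passed (0% of 14580 genes, with 1003 genes at an unadjusted p under 0.05). By DESeq2, 2 of the 7 genes passed, *SEC14L3* as higher and *NUP62* as lower in PF cows, where 0.555% of all genes passed in either direction. Each PF cow was below each TN cow for *NUP62* and *NT5C* (6.36% of all genes) and above each TN cow for *SEC14L3* (6.82% of all genes).

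The PF vs. TN fold changes are given gene by gene, and differences among the genes were not tested. *SEC14L3* was 2.74-fold above the TN mean in the PF group, or 1.46 on the log2 scale (SE 0.29, FDR 0.405 by edgeR, 0.00752 by DESeq2). The log2 fold change of *NT5C* was -1.52 (SE 0.50, FDR 0.697 by edgeR, 0.170 by DESeq2). For *NUP62* it was -1.38 (SE 0.35, FDR 0.596 by edgeR, 0.0214 by DESeq2), and for *TEX12* -1.19 (SE 0.51, FDR 0.708 by edgeR, 0.477 by DESeq2). Without TN replicate 1, the value of *TEX12* was -0.63 and that of *NUP62* was -1.11. The PF cows thus had less *NUP62* and *NT5C* than any TN cow, although neither passed with edgeR after adjustment. *PDYN* (-0.69, SE 0.47, FDR 0.731), *KCNIP4* (-0.35, SE 0.89, FDR 0.926) and *ATF5* (-0.20, SE 0.32, FDR 0.874, all by edgeR) did not separate PF from TN cows. The PF cows below all TN cows numbered 2 for *PDYN*, 1 for *ATF5* and 0 for *KCNIP4*, and the remaining PF cows lay inside the TN range. The comparisons of HS and of PF cows with the TN group share the TN cows, so their values are set side by side here and were not correlated.

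*NUP62* and *ATF5* lie at the same locus. They are neighbouring rows in the count file, and they overlap by 334 bases in RefSeq's gene models for ARS-UCD2.0, which is newer than the alignment's assembly. *IL4I1*, which encodes an amino acid oxidase, overlaps both, by 22837 bases with *NUP62*. How reads in shared bases were counted, and whether strand was used, is not given in the sources used here, so such reads could be lost or assigned to either gene. *IL4I1* had means of 1.69 ± 1.33 CPM in TN, 1.38 ± 0.398 CPM in PF and 2.45 ± 0.486 CPM in HS cows, and it was not called in any pair (edgeR FDR 0.772 for HS vs. TN).

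The 2 genes of the locus did not move in proportion. For each 100 counts of *ATF5* there were 47.4, 24.8 and 25.6 counts of *NUP62* in TN replicates 1 to 3, 19.0, 8.68 and 15.6 in PF replicates 1 to 3, and 9.79, 14.8 and 17.2 in HS replicates 1 to 3. This ratio needs no scaling between libraries, and it was lower in each PF and HS cow than in each TN cow, while PF and HS cows overlapped. Across the 9 cows, the Pearson correlation of *NUP62* on the log2 scale was 0.691 with *ATF5* and 0.957 with *TEX12*, the closest of the 21 pairs of these genes. Spearman's rho was 0.600 with *ATF5* and 0.917 with *TEX12*. Without TN replicates 1 and 3, the cows farthest from the median of *NUP62*, Pearson's values were 0.566 and 0.926. These correlations hold the group differences that chose the genes. With each group's mean taken out, Pearson's value was -0.18 with *ATF5* and 0.94 with *TEX12*. All of these values are descriptions over 9 cows whose libraries they share.

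**Figure D3:**
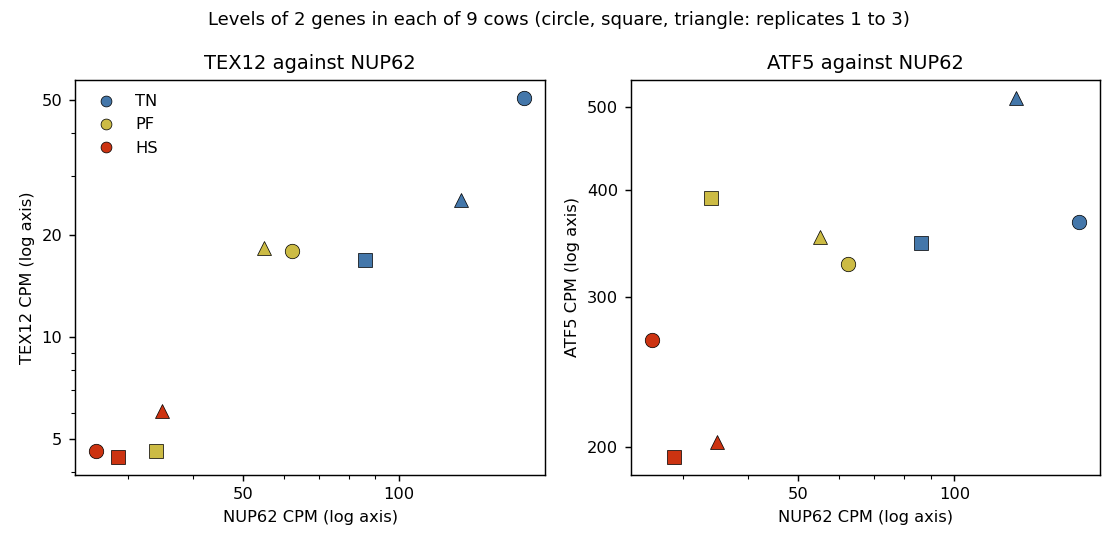
*TEX12* (left) and *ATF5* (right) against *NUP62* in CPM, both axes logarithmic, with 1 point per cow; colour gives the group and shape the replicate. *TEX12* rises with *NUP62* over the 9 cows, from 4.61 CPM beside 26.1 CPM in HS replicate 1 to 50.9 CPM beside 173.9 CPM in TN replicate 1, whereas the *ATF5* levels of PF and TN cows overlap.

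The genes next to the members are given as a description of each region. *BCO2*, a carotenoid-cleaving oxygenase gene that follows *TEX12*, had 22.9 ± 4.05 CPM in TN, 19.0 ± 1.26 CPM in PF and 10.2 ± 3.92 CPM in HS cows. For HS against TN cows it had -1.2 on the log2 scale (SE 0.32) and was not called (edgeR FDR 0.351). For HS against PF cows the value was -0.91 (SE 0.30, edgeR FDR 0.679). HS replicates 1 to 3 had 5.87, 11.2 and 13.5 CPM of *BCO2*, below all TN and PF cows, of which the lowest had 17.6 CPM. Such an order held for 1.49% of the 15073 genes with enough counts. *IL18*, the cytokine gene on the other side, had 23.4 ± 1.99, 20.0 ± 0.551 and 18.0 ± 2.67 CPM in the same groups. Because *TEX12* was chosen for its low HS counts, the size of its difference is not weighed against those of its neighbours.

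*SEC14L3* lies among its relatives and shares 5328 bases with *MTFP1*, a gene for mitochondrial fission. *MTFP1* had the reverse order of group means, with 19.8 ± 4.25 CPM in TN, 11.8 ± 2.34 CPM in PF and 22.98 ± 2.68 CPM in HS cows. Its HS and TN cows overlapped, with a log2 fold change of 0.20 (SE 0.23, edgeR FDR 0.782). Between HS and PF cows *MTFP1* differed by 0.96 on the log2 scale (SE 0.24) and did not pass (edgeR FDR 0.405). *SEC14L2*, whose product binds vitamin E, had 423 ± 208, 277 ± 83.2 and 274.5 ± 53.9 CPM in TN, PF and HS cows. *SEC14L4* had 6.29 ± 1.57, 7.21 ± 2.51 and 4.26 ± 0.587 CPM. Neither relative was called in any pair, with the smallest edgeR FDR at 0.580 for *SEC14L4* and 0.608 for *SEC14L2*, both in HS vs. TN.

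**Figure D4:**
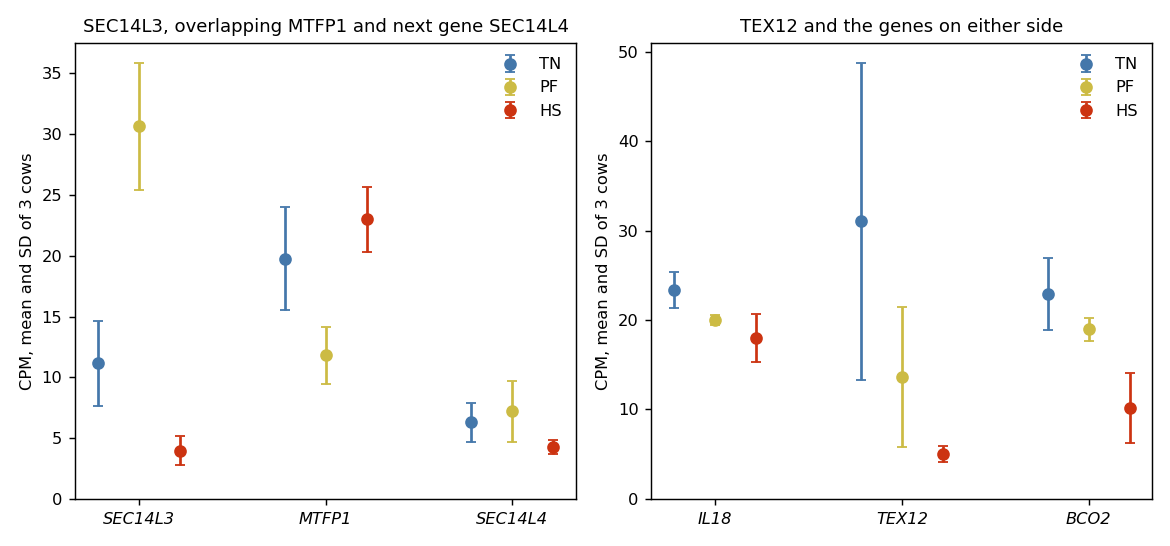
Mean and SD (n = 3 cows) of CPM in TN, PF and HS cows for *SEC14L3*, the overlapping *MTFP1* and the adjacent *SEC14L4* (left) and for *TEX12* between *IL18* and *BCO2* (right). CPM is not scaled by gene length, so groups are to be compared within a gene; the PF group is highest for *SEC14L3* (30.6 CPM) and lowest for *MTFP1* (11.8 CPM).

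Around *NT5C*, the overlapping genes *JPT1* and *ARMC7*, which share at most 10 bases with it, had HS means of 17.1 ± 2.56 and 8.22 ± 1.004 CPM against TN means of 18.3 ± 3.88 and 11.0 ± 1.67 CPM. *SUMO2*, for a small ubiquitin-like modifier, was at 66.3 ± 6.59 CPM in the HS and 52.7 ± 14.4 CPM in the TN group, and *SLC16A5*, for a monocarboxylate transporter family member, had 10.6 ± 2.07 and 22.4 ± 12.5 CPM. The PF means were 11.7 ± 1.52 (*JPT1*), 8.24 ± 1.88 (*ARMC7*), 70.4 ± 9.23 (*SUMO2*) and 18.9 ± 11.1 CPM (*SLC16A5*). For *JPT1* and *ARMC7* each PF cow lay below each TN cow, an order that held for 6.36% of all genes. None of the 4 was called in any pair by edgeR. The genes beside *PDYN* were higher in the mean of the HS group, at 11.6 ± 1.48 CPM in HS against 7.90 ± 1.25 CPM in TN cows for *STK35* and 42.0 ± 11.9 and 29.7 ± 8.69 CPM for *SIRPA*. Those beside *KCNIP4* had HS and TN means of 3.92 ± 0.754 and 5.396 ± 1.46 CPM (*PACRGL*) and 31.2 ± 8.03 and 25.4 ± 12.7 CPM (*ADGRA3*). Beside *NUP62* and *ATF5*, *SIGLEC11* was at 0.408 ± 0.381 CPM in the HS and 1.94 ± 1.56 CPM in the TN group, and the noncoding *LOC107131441* at 1.52 ± 0.305 and 1.62 ± 1.40 CPM. The HS vs. TN value of *SIGLEC11*, -2.20 on the log2 scale, was -1.34 without TN replicate 1 and -3.35 without HS replicate 1. The noncoding *LOC112447054* inside *KCNIP4* had at most 3 counts in any cow. None of these genes with enough counts for the test was called either.

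Genes related to each member were followed as lists, without the members themselves. With its filter on low counts edgeR called no gene of the 7 lists in any pair, while DESeq2 called 5 times: *PCSK1N* higher in HS than TN, *CDA* and *ADA* higher in HS than PF, and *CPE* and *DDIT4* lower in PF than TN cows. Without the filter edgeR called 4 of these, *CDA* (FDR 0.0115), *ADA* (FDR 0.0441), *CPE* (FDR 0.0336) and *DDIT4* (FDR 0.0106), in the same pairs. The numbers with an unadjusted p under 0.05 are given below for HS vs. TN, where 1365 of 14582 genes (9.36%) had such a p, 602 of them higher and 763 lower in HS cows.

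In the opioid list, 9 of 17 genes were tested, with 8 higher and 1 lower in HS than TN cows. An unadjusted p under 0.05 was found for 3 higher and 0 lower genes. The median log2 fold change was 0.33 in the list and -0.01 over all genes. *PCSK1N*, which encodes an inhibitor of a prohormone convertase, had 0.809 ± 0.641 CPM in the TN group against 3.74 ± 0.710 CPM in the HS group, or 2.20 on the log2 scale (SE 0.60, edgeR FDR 0.374) and 3.05 without TN replicate 3. *CPE*, a carboxypeptidase that trims prohormones, differed by -2.65 on the log2 scale between PF and TN cows (edgeR FDR 0.586). A pair of genes was chosen after their values were seen: *OPRK1*, for the dynorphin receptor, had 0 counts in each of the 9 cows, and *POMC*, another opioid precursor gene, was at 14.7 ± 3.40 CPM in the TN and 18.7 ± 4.79 CPM in the HS group.

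The nuclear pore list had 29 of 31 genes tested, with 13 higher and 16 lower in HS than TN cows and a median log2 fold change of -0.03. Only 1 gene had an unadjusted p under 0.05, the *NUP62* paralog *NUP62CL*, at 5.85 ± 0.411 CPM in HS against 11.0 ± 2.14 CPM in TN cows (-0.92 on the log2 scale, SE 0.26, edgeR FDR 0.381). Channel partners of the protein, chosen after their values were seen, were not called: *NUP54* was at 11.7 ± 0.774 CPM in the TN and 13.3 ± 0.492 CPM in the HS group, and *NUP58* at 19.9 ± 4.58 and 17.5 ± 0.669 CPM.

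Of the stress-response genes listed with *ATF5*, 20 of 21 were tested, 12 were higher and 8 lower in HS cows, and 3 higher and 0 lower had an unadjusted p under 0.05. The median log2 fold change was 0.16. The smallest p belonged to *CEBPB*, a transcription factor gene, with 67.1 ± 7.51 CPM in the HS against 43.8 ± 4.18 CPM in the TN group (0.60 on the log2 scale, SE 0.21, edgeR FDR 0.458). The others, named after their values were seen, were *HSPD1* and *HSPE1*. *HSPD1* had 237 ± 82.2 CPM in the HS and 111 ± 61.8 CPM in the TN group (edgeR FDR 0.512). *HSPE1* had 294 ± 99.6 and 142 ± 71.8 CPM (edgeR FDR 0.522). *DDIT4*, an inhibitor of mTOR signaling, differed by -1.54 on the log2 scale between PF and TN cows (edgeR FDR 0.615). It had 124 CPM in TN replicate 1 against 41.3 and 44.5 CPM in the other TN cows, and without that cow the value was -0.83 (SE 0.23).

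In the list of nucleotidases and deoxynucleotide enzymes, 21 of 24 genes were tested, with 8 higher and 13 lower in HS than TN cows. An unadjusted p under 0.05 was found for 1 higher and 0 lower gene. The median log2 fold change was -0.13 for HS vs. TN and -0.30 for PF vs. TN. *CDA*, which encodes cytidine deaminase, had 4.42 ± 1.51 CPM in TN, 2.27 ± 0.374 CPM in PF and 9.38 ± 4.82 CPM in HS cows. Between HS and PF cows it differed by 2.03 on the log2 scale (SE 0.40, edgeR FDR 0.215), and *ADA*, for adenosine deaminase, by 1.21 (edgeR FDR 0.315).

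The meiosis list had 8 of 18 genes with enough counts for the HS vs. TN test, 0 of them with an unadjusted p under 0.05. Of these, 2 were higher and 6 lower in HS than TN cows, and the list had a median log2 fold change of -0.30. Its smallest p was that of *SYCP2*, another synaptonemal complex gene, with 1.74 ± 1.75 CPM in TN, 0.339 ± 0.298 CPM in PF and 0.463 ± 0.322 CPM in HS cows (-1.90 on the log2 scale for HS vs. TN, SE 0.87, edgeR FDR 0.523). TN replicate 1 had 3.75 CPM of *SYCP2* and the other TN cows 0.802 and 0.656 CPM, and without it the value was -0.60 (SE 0.82). Of the germ cell markers, *TDRD1* and *PIWIL1* had 0 counts in all cows, and the summed level of the 8 markers was 9.14 to 16.7 CPM in TN, 7.99 to 13.9 CPM in PF and 7.80 to 12.4 CPM in HS cows. The part of other cell types in the level of *TEX12* was not tested.

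The SEC14-like and lipid transfer list had 11 of 14 genes tested, with 5 higher and 6 lower in HS than TN cows, none with an unadjusted p under 0.05. *MOSPD2* had the smallest p, at 0.42 on the log2 scale (SE 0.21, edgeR FDR 0.537). In the list of potassium channel subunits and calcium sensors 10 of 17 genes were tested. Of these, 2 were higher and 8 lower in HS than TN cows, with a median log2 fold change of -0.14. Only 1 gene, the calcium sensor *NCS1*, had an unadjusted p under 0.05, and it was among the higher ones. Its value was 0.83 on the log2 scale (SE 0.35, edgeR FDR 0.509) and 0.29 without HS replicate 2. Of the channel genes that KCNIP4 protein can join, chosen after their values were seen, *KCND2* had 0 counts in all 9 cows and *KCND1* was at 3.86 ± 0.896 CPM in the TN and 2.45 ± 0.588 CPM in the HS group. Of the 10 neural markers, 7 stayed under 1 CPM in all cows, and the summed level of the list was 6.38 to 22.7 CPM in TN, 10.3 to 16.0 CPM in PF and 10.2 to 26.2 CPM in HS cows. *S100B* made up most of this sum, with 23.1 CPM in HS replicate 1, 19.9 CPM in TN replicate 1 and 4.53 to 10.3 CPM in the other cows. The part of neural cells in the levels of *PDYN* and *KCNIP4* was not tested.

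Most of the other marker lists overlapped between the groups. Their summed levels in TN, PF and HS cows were 28.2 to 86.3, 41.0 to 90.2 and 19.0 to 100.9 CPM for cholangiocytes, and 887 to 1963, 667 to 1217 and 1280 to 2349 CPM for macrophages. The macrophage sum, though not each marker in turn, was read by cow, and its lowest HS value was just above its highest PF value. The endothelial markers had 429 to 620.1, 477 to 675 and 451.5 to 666 CPM, the stellate cell markers 136 to 234, 122 to 231 and 106 to 222 CPM, and the lymphocyte markers 56.4 to 87.7, 52.4 to 65.6 and 62.9 to 73.6 CPM. Red cell markers had 3.40 to 22.4 CPM in TN, 0 to 2.29 CPM in PF and 0.336 to 1.33 CPM in HS cows. Most of the sum in TN cows came from 1 gene, *HBB* (3.21 to 22.3 CPM), and *SLC4A1* was at 0 throughout. The sum was lower in each PF and HS cow than in each TN cow. Pancreatic markers had 0.358 to 1.79 CPM in TN, 0.968 to 24.4 CPM in PF and 18.8 to 34.4 CPM in HS cows, with 6 of the 9 at 0 in all cows. Nearly the whole sum in HS cows was 1 gene, *PRSS2*, at 17.6 to 33.9 CPM, while *CELA1* and *INS* did not exceed 1.17 and 0.760 CPM in any cow. The part of blood or of any other cell type in these results was not tested.

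Genes whose levels were most like those of each member over the 9 cows were found by the Pearson correlation of log2(CPM + 0.5). For *NUP62* they were *QRICH1* (0.966) and *LOC104974020* (0.962), and for *TEX12* *QRICH1* (0.975) and *LOC100335780* (0.961), so that 1 gene headed both. For *PDYN* they were *LOC101905593* (0.956) and *LOC100196901* (0.943), and for *ATF5* *LOC112443447* (0.961) and *ENC1* (0.943). *NT5C* was most like *MAML1* (0.962) and *CHD7* (0.946), *SEC14L3* like *FAM84A* (0.924) and *NAPSA* (0.916), and *KCNIP4* like *SLC16A5* (0.937) and *AGFG1* (0.923). These are the closest of 15073 genes and carry no test. The correlations hold the group differences that chose the members, and *NUP62* and *TEX12* had 0.957 with each other.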

How the data were processed

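Liver RNA of 9 cows (3 TN, 3 PF and 3 HS) was sequenced by the authors. The deposited table holds raw counts for each gene. Per the study's methods, reads were cleaned with fastp 0.23.2, aligned to ARS-UCD1.2 with STAR 2.7.9a and counted with featureCounts 2.0.3 (versions also in the submitters' processing notes); the annotation, strand and multi-mapping settings are not given in the sources used here. All 9 columns were mapped by label. No source says that cows were pooled, and p-values measure the spread between these cows.

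R 4.3.3 and edgeR 4.0.16 were used to compare 2 groups at a time, without the other group (filterByExpr, TMM, quasi-likelihood F test, Benjamini-Hochberg FDR across the genes that passed); a call needed FDR < 0.1 and fold change > 1.5. The SE is the log2 fold change divided by the root of F. DESeq2 1.42.0 and the other alternatives are described in the closing section. CPM used TMM factors of all 9 libraries, with an offset of 0.5 on the log2 scale. The fits were first tested on simulated data. The members and the gene lists were chosen with earlier results of these data known. Genes outside the members were named as neighbours, as listed genes called or with the smallest p in HS vs. TN, or as the 2 most alike in level; exceptions are stated. RefSeq genes of ARS-UCD2.0 (24366 of 28786 symbols and all 7 members matched) served for names and neighbours only.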

Additional observations from a re-analysis of the deposited data

How the results depend on the processing

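The number of the 7 genes called depended on the processing. Between HS and TN cows it was 4 in the edgeR fit, 7 with DESeq2, 2 with all 9 libraries in 1 fit, 0 at an FDR under 0.05, and 0 to 4 with 1 cow left out. Between HS and PF cows it was 1 and rose to 2 with DESeq2, RLE size factors, mitochondrial genes left out, no filter on low counts, or all 9 libraries in 1 fit, the added gene being *PDYN*; it stayed at 1 with each cow left out. Between PF and TN cows it was 0, with 2 under DESeq2, 3 (*NUP62*, *NT5C*, *SEC14L3*) without the filter, and 0 with each cow left out. Over all genes, the numbers called in the edgeR fits and with DESeq2 were 13 and 270 (HS vs. TN), 4 and 122 (HS vs. PF), and 0 and 91 (PF vs. TN). Without the filter, edgeR called 98 of 20495 genes (HS vs. PF) and 136 of 20273 genes (PF vs. TN). With all 9 libraries in 1 fit it called 4 (HS vs. TN) and 3 genes (HS vs. PF). With RLE size factors, and again with mitochondrial genes left out, it called 8 genes (HS vs. PF).

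Of 288 log2 fold changes of the members under alternatives, 242 kept their direction and their side of the threshold, 26 lost a call, 14 gained one and 6 changed sign. In PF vs. TN, *KCNIP4* turned to 0.018 with the replicate block, to 0.14 without PF replicate 3 and to 0.43 without TN replicate 3, and ranged from -0.89 to 0.43 with 1 cow left out, and *ATF5* ranged from -0.30 to 0.0036. *NT5C* in HS vs. PF ranged from -0.39 to 0.69. The cause was not tested.

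With the replicate block, the calls among the members stayed at 4, 1 and 0, while those over all genes went to 33, 6 and 1. Same-numbered cows had deviations with correlations from -0.218 to 0.241. Not all of these exceeded 0.1, and the cows did not all correlate best with their own number. With 3 cows per group, these values cannot decide whether same-numbered cows were matched, and the labels give only the number. The number of genes with each HS cow below all others was 224. *PDYN* in HS cows is limited by depth, with 3 or 4 counts per library.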
